A study of Sus scrofa with 24 samples.

Results

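The interval between day 2 and day 4 of adipogenic culture was examined in intramuscular preadipocytes (IMF cells), the fibroblast-like fat cell precursors that lie between muscle fibres. The 3 day 4 libraries (IMF-4d) were compared with the 3 day 2 libraries (IMF-2d), chosen by depot and day from the sample labels, which made 6 of the 24 RNA-seq libraries of the series. Cells of both groups came from the longissimus dorsi, a muscle along the spine, of six-day-old Yorkshire piglets and carried no genetic alteration. Up to day 2 the cells were held in induction medium, which contained the phosphodiesterase inhibitor IBMX, the glucocorticoid dexamethasone, insulin and serum, and between day 2 and day 4 in a maintenance medium whose stated hormone was insulin. The remaining libraries were IMF cells of day 0 and day 8 and subcutaneous preadipocytes of the back fat (BF) on the same 4 days, also with 3 replicates each. The cultures were primary and not a clone, and whether a replicate number marked 1 piglet was not given in the sources used here, so that p-values measure the spread between these libraries.

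Induction by a cAMP-raising agent, a glucocorticoid and insulin first switches on immediate early genes and the factors CEBPB and CEBPD, which are followed by PPARG and CEBPA, the pair that drives the lipid genes of the fat cell. Withdrawal of IBMX and dexamethasone leaves insulin as the main signal, through which glucose uptake and lipid synthesis are promoted. Intramuscular cells are known for a slower and weaker course than subcutaneous cells and for the fibrous character of the tissue in which they lie.

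Of 16135 genes tested, 6 were called from day 2 to day 4 in IMF cells, 5 higher and 1 lower, which was 0.0372% of the genes tested. A call required a Benjamini-Hochberg adjusted p under 0.01 in limma together with a difference of at least 1 on the scale of log2(FPKM + 1), where FPKM is fragments scaled to transcript length and to the mapped fragments of the library. The genes that rose were TXNIP, CRABP1, LMCD1, FBLN7 and TNMD, and the gene that fell was HAS2. The adjusted p alone, with no limit on size, was passed by 16 genes, and an unadjusted p under 0.05 by 1345.

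TXNIP encodes thioredoxin-interacting protein, an alpha-arrestin that restrains glucose uptake and whose transcription answers to glucose through MondoA and ChREBP. These factors bind carbohydrate response elements, which are paired E-box-like motifs, and the bases before the starts of TXNIP and of its relative ARRDC4 are shown because both genes are known targets of the same factors. The sequences are from the RefSeq genome Sscrofa11.1, 250 bases up to the annotated gene start, printed 5′ to 3′ in the direction of the gene, with capitals marking every match to the motif CACGNG on either strand. The TXNIP window lies at chr4:99348339-99348588 on the plus strand and the ARRDC4 window at chr7:81669585-81669834 on the minus strand.
TXNIP: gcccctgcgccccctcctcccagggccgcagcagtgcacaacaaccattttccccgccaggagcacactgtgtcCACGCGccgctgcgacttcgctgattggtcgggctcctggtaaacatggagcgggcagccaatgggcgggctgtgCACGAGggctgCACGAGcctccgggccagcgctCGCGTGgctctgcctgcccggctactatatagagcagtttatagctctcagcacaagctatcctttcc
ARRDC4: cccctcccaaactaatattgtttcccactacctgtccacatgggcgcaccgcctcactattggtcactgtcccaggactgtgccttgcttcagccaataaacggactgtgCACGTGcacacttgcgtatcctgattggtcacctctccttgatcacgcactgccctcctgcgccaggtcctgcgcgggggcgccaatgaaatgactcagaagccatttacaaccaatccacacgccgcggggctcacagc

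The TXNIP window held 2 copies of CACGNG in the same direction with 5 bases between them, a form searched on both strands, with its first base at position -101 counted from the gene start, and the 2 motifs of the pair were also counted singly. The same pair occurred in 9 of 20664 windows before protein-coding genes (0.0436%). The palindrome CACGTG, which is itself a match to CACGNG, stood at position -140 of the ARRDC4 window and at position -161 before FBLN7, and in 1273 of the 20664 windows (6.16%). CACGNG on its own was present in 5471 windows (26.5%), among them those of TXNIP, ARRDC4, CRABP1 and FBLN7 but not those of LMCD1, TNMD and HAS2. These matches describe the letters of the windows, and no binding was measured.

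TXNIP (ENSSSCG00000031262, chr4:99348589-99351760) stood at 14.7, 11.3 and 14.8 FPKM in the 3 day 2 libraries and at 63.2, 57.6 and 60.3 FPKM in the 3 day 4 libraries. The groups were far apart, with means of 13.6 ± 2.00 and 60.4 ± 2.82 FPKM (SD, n = 3), and the log2 difference was 2.08 (SE 0.33, adjusted p = 0.0057 in limma). Day 0 libraries ran from 8.09 to 11.6 FPKM and day 8 libraries from 57.7 to 75.5 FPKM, and the ranges of day 4 and day 8 overlapped. In BF cells the day 2 libraries stood at 27.7, 19.2 and 55.2 FPKM and the day 4 libraries at 35.9, 52.7 and 14.6 FPKM, which overlapped. In bulk RNA, a change in the number of cells that express a gene and a change in RNA per cell cannot be told apart, and this holds for every gene below.

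ARRDC4, the relative of TXNIP, was measured at 10.3, 11.5 and 10.2 FPKM on day 2 and at 17.2, 15.2 and 17.4 FPKM on day 4. The groups did not overlap, but with a log2 difference of 0.59 (SE 0.20, adjusted p = 0.299 in limma) the gene was not called. Of the 14 tested genes listed as targets or partners of glucose sensing, TXNIP alone was called, and the median difference of the list was -0.02 against 0.02 for all genes tested, with a sign that changed when single libraries were left out. KLF10, another glucose-responsive gene, stood at 51.2, 47.6 and 52.5 FPKM and then at 33.4, 32.8 and 33.2 FPKM (log2 difference -0.59, adjusted p = 0.0917). HK2, the hexokinase that traps glucose in insulin-sensitive cells, had 7.84, 12.8 and 7.46 FPKM on day 2 and 4.86, 4.5 and 4.68 FPKM on day 4 (log2 difference -0.83, adjusted p = 0.383). Members of the list therefore lay on both sides of 0.

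CRABP1 (ENSSSCG00000021873, chr7:47602316-47608865), which binds retinoic acid in the cytosol, was measured at 0.623, 1.51 and 0.588 FPKM on day 2 and at 4.77, 5.06 and 4.08 FPKM on day 4. The lowest day 4 library stood above the highest day 2 library, and the log2 difference was 1.59 (SE 0.18, adjusted p = 0.000187 in limma). On day 8 the 3 libraries were listed at 0, 0.197 and 0.322 FPKM, and the drop from day 4 to day 8 was called as well. Day 0 libraries had 0.556 to 1.09 FPKM, so that day 4 held the highest libraries of the 4 days. Its paralogue CRABP2 was far more abundant, with 125, 117 and 144 FPKM on day 2 and 80.2, 94.5 and 90.2 FPKM on day 4, and was not called (log2 difference -0.54, adjusted p = 0.832).

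LMCD1 (ENSSSCG00000011538, chr13:64933692-64994204), a LIM-domain cofactor of transcription, had the smallest adjusted p. It was measured at 1.12, 0.826 and 1.59 FPKM on day 2 and at 5.31, 5.89 and 4.99 FPKM on day 4, with no overlap (log2 difference 1.57, SE 0.13, adjusted p = 1.39e-06 in limma). On day 8 the libraries stood between 0.0308 and 0.101 FPKM, below every earlier IMF library. In BF cells LMCD1 had been at 6.43 to 8.23 FPKM on day 0 and was at 0.474 FPKM or less in each library from day 2 on.

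FBLN7 (ENSSSCG00000008101, chr3:44215037-44266984), a fibulin of the extracellular matrix, stood at 2.5, 2.51 and 2.28 FPKM on day 2 and at 9.18, 8.91 and 6.84 FPKM on day 4 (log2 difference 1.43, SE 0.23, adjusted p = 0.0057 in limma). The higher level was also seen on day 8, at 10 to 11.4 FPKM. TNMD (ENSSSCG00000012480, chrX:82269323-82292083), tenomodulin, a membrane glycoprotein of tendon that is also expressed in fat cell precursors, was measured at 0.497, 0.250 and 0.562 FPKM and then at 2.79, 2.97 and 1.76 FPKM (log2 difference 1.28, SE 0.17, adjusted p = 0.00139 in limma). Both genes were expressed at a low level, and neither set of libraries overlapped between the days.

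HAS2 (ENSSSCG00000005992, chr4:17583154-17613524), the main synthase of hyaluronan in connective tissue cells, was the gene that fell. It was measured at 11.7, 17.4 and 10.2 FPKM on day 2 and at 3.71, 3.87 and 4.64 FPKM on day 4 (log2 difference -1.44, SE 0.23, adjusted p = 0.00594 in limma). Day 0 libraries had 3.48 to 5.41 FPKM and the increase from day 0 to day 2 was called, so day 2 was the high point of the 4 days. Among the other 16 tested genes of hyaluronan synthesis, binding and breakdown none was called. UGDH, which makes the sugar precursor of hyaluronan, stood at 43.4, 42.7 and 43.9 FPKM and then at 29.5, 30.2 and 34.9 FPKM (log2 difference -0.45, adjusted p = 0.502). CEMIP, a hyaluronan-degrading protein, had 4.93, 6.18 and 4.14 FPKM and then 10.9, 10.3 and 9.10 FPKM (log2 difference 0.88, adjusted p = 0.432), and the receptor CD44 overlapped between the days at 37.3 to 38.5 and 28.5 to 39.1 FPKM.

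**Figure D1:**
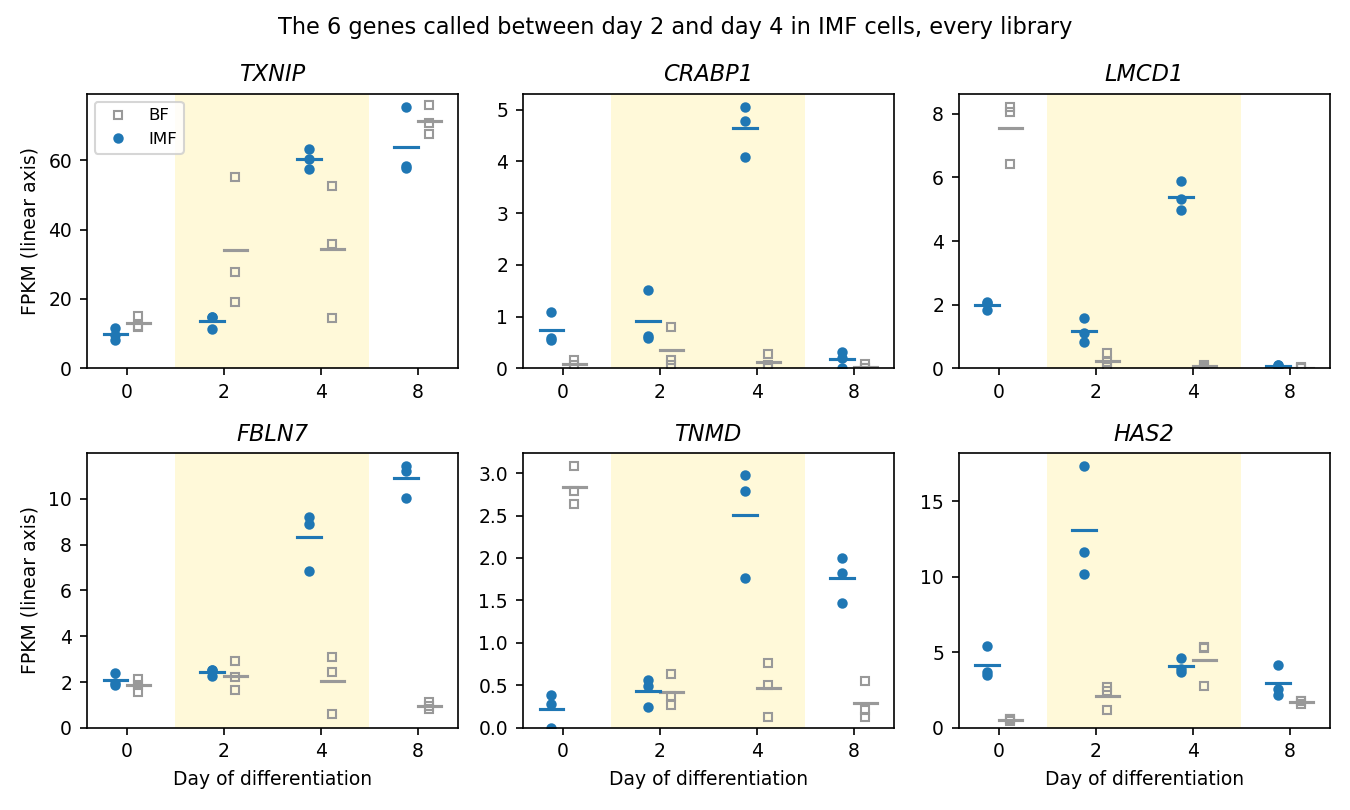
FPKM (linear axes) of the 6 called genes in every library by day of differentiation, with IMF cells as filled circles, BF cells as open squares and horizontal bars at the means of 3 libraries. Shading marks the interval from day 2 to day 4, across which the IMF circles of TXNIP moved from 11.3 to 14.8 up to 57.6 to 63.2 FPKM and those of HAS2 from 10.2 to 17.4 down to 3.71 to 4.64 FPKM.

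LMCD1 and CRABP1 stayed called when any 1 of the 6 compared libraries was left out. TXNIP, FBLN7 and HAS2 lost the call without each of these 6 libraries, with adjusted p of 0.0227 to 0.0450 for TXNIP, 0.0135 to 0.0363 for FBLN7 and 0.0109 to 0.0505 for HAS2, while their log2 differences stayed within 1.96 to 2.15, 1.36 to 1.55 and -1.59 to -1.24. TNMD lost it without IMF-2d replicate 2 (adjusted p = 0.0132), IMF-4d replicate 1 (0.0129) or IMF-4d replicate 2 (0.0147). None of the 6 remained called with a pseudocount of 0.1 in place of 1. The log2 differences were larger there, at 2.16 for TXNIP, 2.34 for CRABP1, 2.14 for LMCD1, 1.72 for FBLN7, 2.30 for TNMD and -1.63 for HAS2. The adjusted p in limma was 0.0236 for LMCD1, 0.0913 for TNMD and 0.169 for CRABP1. FBLN7 also lost the call under both other scalings, TXNIP without a filter on low values and with a replicate block, HAS2 in these fits and with only the 6 compared libraries, and CRABP1 and TNMD with only those 6. Of the 18 fits without a library outside the comparison, 17 kept HAS2, which lost its call without BF-8d replicate 3.

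Fewer genes were called in this interval than in 3 other contrasts. IMF cells had 127 calls between day 0 and day 2 (0.787% of 16135) and 1169 calls between day 4 and day 8 (7.25%). BF cells had 541 calls over the same interval of day 2 to day 4 (3.35%). These contrasts shared libraries with the interval or the estimate of spread and are given side by side. The median absolute log2 difference was 0.10 in the interval, against 0.15 before it, 0.26 after it and 0.22 in BF cells over the same days. A difference of at least 1 in either direction, called or not, was measured for 52 genes in the interval, and for 226, 1291 and 704 genes in the other contrasts in the same order.

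**Figure D2:**
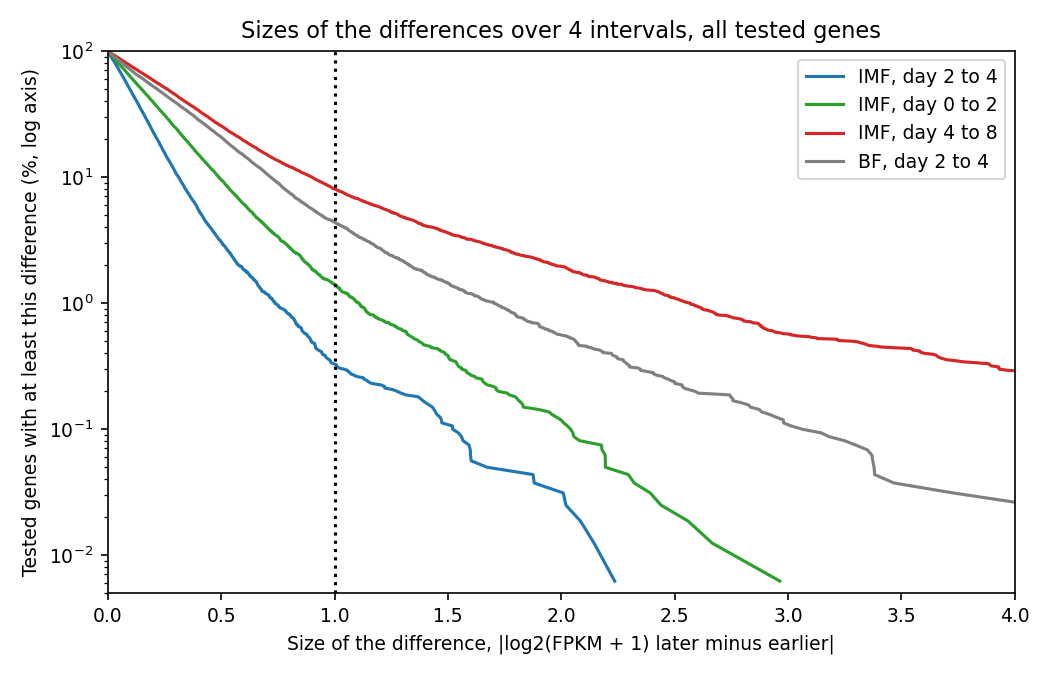
Percentage of the 16135 tested genes (log axis) whose absolute difference in log2(FPKM + 1) was at least the value on the x axis, with 1 line for each of 4 intervals. The line of IMF cells from day 2 to day 4 lies lowest, and at the dotted line (a difference of 1) it stands for 52 genes against 1291 for IMF cells from day 4 to day 8.

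A gene that was not called is not shown to be unchanged, so the 95% confidence intervals of the differences were counted. For 15402 of the 16135 genes (95.5%) the interval lay wholly between -1 and 1, and for 10697 (66.3%) between -0.5 and 0.5. The intervals reached a median of 0.30 to either side of the difference. Wide intervals were more frequent among abundant genes: 51 of 438 genes with a mean over 100 FPKM had an interval that reached beyond 1, against 78 of 5398 genes under 1 FPKM, whose differences are compressed by the pseudocount. With a pseudocount of 0.1 in place of 1, only 11440 of the 16135 genes had an interval wholly between -1 and 1. Of the 6 called genes, 5 had a mean between 1 and 10 FPKM and 1 between 10 and 100 FPKM.

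Distances between libraries of day 2 and day 4 overlapped with those between replicates of day 2. The root mean square difference across genes was 0.23 to 0.27 between IMF-2d libraries, 0.21 to 0.23 between IMF-4d libraries and 0.24 to 0.31 (median 0.28) between a day 2 and a day 4 library. The same measure had a median of 0.38 between day 0 and day 2 and of 0.69 between day 4 and day 8. In 2346 genes (14.5%) every day 4 library lay above every day 2 library, and in 1555 (9.64%) every day 4 library lay below. After median ratio scaling, which centred the differences on 0, these counts were 1870 and 2061, and after quantile normalization 1793 and 2036, so the split between higher and lower followed the scaling.

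When only the 12 IMF libraries entered the fit, 19 genes were called (0.118% of 16135), 17 higher and 2 lower, and all 6 genes above were among them. The 24-library fit takes the spread of each gene partly from BF cells, whose replicates differed more on day 2 and day 4 (median SD of log2 values 0.22 in BF-2d and 0.16 in BF-4d, against 0.09 in IMF-2d and in IMF-4d) and less on day 0 and day 8 (0.09 in BF-0d and 0.12 in BF-8d, against 0.13 in IMF-0d and 0.14 in IMF-8d). The part of these spreads in the additional calls was not tested. The 13 additional genes are named here for that count, after their values were seen. Among those higher on day 4 in this fit were the matrix genes POSTN, COL18A1 and COL8A2, the chemokine CXCL12, the intermediate filament gene DES, the stress factor DDIT3, the protease MMP1, the peptide hormone gene ADM, the lipoprotein gene APOE, the pentraxin PTX3 and 2 genes assembled by the authors, and the chemokine gene AMCF-II was lower.

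CXCL12, which encodes a chemokine made by stromal cells, was measured at 7.80, 9.49 and 7.38 FPKM on day 2 and at 30.2, 26.3 and 24.2 FPKM on day 4. The log2 difference of 1.6 had an adjusted p of 0.000102 in limma with the 12 IMF libraries and of 0.472 with all 24. BF cells stood at 20.4, 3.81 and 0.761 FPKM on day 4, a spread that was absent in IMF cells. DDIT3, the transcription factor CHOP of the stress response, had 12.9, 8.37 and 10.1 FPKM and then 29.6, 28.3 and 31.2 FPKM (log2 difference 1.44, adjusted p = 0.00145 in limma with the IMF libraries and 0.316 with all 24). Periostin (POSTN) had 37.6, 26.2 and 25.6 FPKM and then 83.4, 79.1 and 87.1 FPKM (log2 difference 1.47, adjusted p = 0.00235 and 0.111). For these genes the IMF groups were apart and the call depended on which libraries entered the fit.

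Just short of the call in the fit of all libraries were genes with differences under 1 and, with APOE, a gene with a larger difference that missed on p. THBS4, a thrombospondin of the matrix, stood at 49.2, 46.9 and 46.4 FPKM and then at 78.3, 84.9 and 81.7 FPKM (log2 difference 0.77, adjusted p = 0.00318 in limma). KIAA1755, UAP1L1, SNX25 and CA11 likewise passed the adjusted p, at 0.00384, 0.0057, 0.00629 and 0.00994, with log2 differences of 0.67, 0.78, 0.90 and 0.55. BMPER, a modulator of BMP signalling, FZD8, a Wnt receptor, ARNT, the partner of HIF and AHR factors, THAP3 and APOE followed with log2 differences of 0.75, 0.77, 0.57, 0.67 and 1.20 and adjusted p between 0.0107 and 0.0178. ARNT was the most abundant of these, at 109, 105 and 105 FPKM on day 2 and 162, 150 and 163 FPKM on day 4.

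On the lower side, SNAI1, a repressor of epithelial genes, stood at 22.3, 21.7 and 24.5 FPKM on day 2 and at 14.2, 15.9 and 12.5 FPKM on day 4 (log2 difference -0.65, adjusted p = 0.0141 in limma). RHBDL2, CMKLR2, TNFSF18, S100A4, TPRG1 and SMAD7 had log2 differences of -0.68, -0.64, -0.89, -0.88, -0.67 and -0.57 and adjusted p from 0.0184 to 0.0917. S100A4, a calcium-binding protein of fibroblasts, went with 462, 527 and 546 FPKM on day 2 and 285, 274 and 269 FPKM on day 4. SMAD7, the inhibitor of TGF-beta signalling, had 12, 9.97 and 10.7 FPKM and then 7.21, 6.89 and 6.93 FPKM. In each of these genes the libraries of the 2 days did not overlap, against 9.64% of all genes that lay below. They were picked by smallest p in the same libraries, so this adds no evidence of its own.

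NR4A1 and AMCF-II, also on the lower side, had larger differences and 1 high library on day 2. NR4A1, an orphan nuclear receptor induced by cAMP, was measured at 20.3, 55.0 and 13.3 FPKM on day 2 and at 6.05, 4.76 and 5.43 FPKM on day 4 (log2 difference -2.01, SE 0.47, adjusted p = 0.0743 in limma). AMCF-II, a pig CXC chemokine, had 280, 597 and 218 FPKM and then 89.4, 82.5 and 97.6 FPKM (log2 difference -1.88, SE 0.41, adjusted p = 0.0503). IMF-2d replicate 2 was the highest library for both. It was also the highest of the 3 day 2 libraries for 19 of the 28 tested genes of the cAMP response (67.9%) and for 13 of the 23 tested cytokine and prostaglandin genes (56.5%), against 29.6% of all genes tested. This was not particular to these lists, since it was also highest for 73.1% of the glycolysis and hypoxia genes, 62.5% of the study candidates, 61.9% of the matrix proteases and inhibitors, 58.8% of the hyaluronan genes and 57.1% of the glucose-sensing genes.

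**Figure D3:**
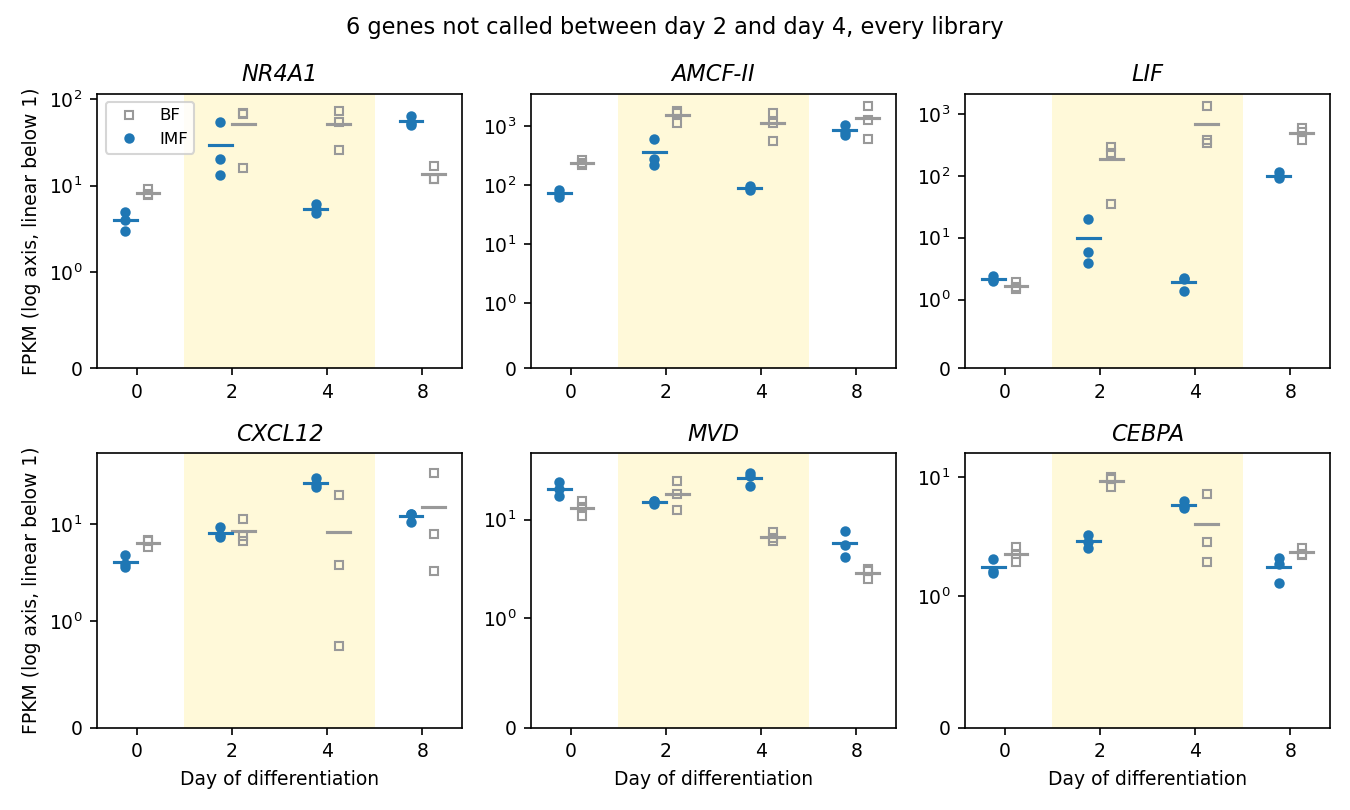
FPKM (log axes, linear below 1) of 6 genes that were not called in the fit of all libraries, in every library by day, with IMF cells as filled circles, BF cells as open squares, bars at the means of 3 libraries and shading from day 2 to day 4. NR4A1, AMCF-II and LIF had 1 high day 2 library in IMF cells (55.0, 597 and 20 FPKM), and CXCL12, MVD and CEBPA were higher in each IMF library of day 4 than in any of day 2.

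None of the 28 tested genes of the cAMP response was called, and their median difference was -0.09. Without IMF-2d replicate 2 the median was -0.02, and without IMF-2d replicate 3 it was -0.15. Every day 4 library was above every day 2 library for 4 of the genes (14.3%) and below for 4 (14.3%), against 14.5% and 9.64% of all genes. Without IMF-2d replicate 3 the number below was 11 (39.3%), against 13.6% of all genes with that library left out. Fewer libraries overlap less often, and with any 1 of the 6 left out 18.3 to 23.7% of all genes were above and 12.6 to 15.4% below. FOS, an immediate early gene, was among the former, at 3.01, 4.02 and 2.43 FPKM on day 2 and 6.08, 5.33 and 5.97 FPKM on day 4 (log2 difference 0.73, adjusted p = 0.0540 in limma), as was EGR1 at 39.1 to 44.6 and 54.8 to 66.1 FPKM. The phosphodiesterase gene PDE4B, a target of cAMP, overlapped between the days.

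None of the 19 tested glucocorticoid-responsive genes was called either, with a median of 0.03, which was 0.11 without IMF-2d replicate 2 and about 0 without IMF-2d replicate 3. Every day 4 library lay above every day 2 library for 6 of them (31.6%) and below for 2 (10.5%), against 14.5% and 9.64% of all genes. MFGE8 and LPIN1 were among those above, with log2 differences of 0.43 and 0.36 (adjusted p = 0.421 and 0.492 in limma). FKBP5, a classical target of the glucocorticoid receptor, was measured at 21.2, 15.9 and 18.7 FPKM on day 2 and at 17.3, 16.3 and 21.4 FPKM on day 4 (log2 difference -0.02, 95% interval -0.58 to 0.54). PER1, a clock gene that glucocorticoids induce, stood at 9.62, 15.1 and 8.98 FPKM and then at 8.03, 7.72 and 6.78 FPKM (log2 difference -0.49, adjusted p = 0.252). The libraries of the 2 days overlapped for FKBP5 and did not for PER1.

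Of 23 tested cytokine, chemokine and prostaglandin genes none was called, and the list median was -0.32. In 10 of them (43.5%) every day 4 library lay below every day 2 library and in 2 (8.7%) above, against 9.64% and 14.5% of all genes. LIF, a cytokine of the IL6 family, stood at 5.77, 20 and 3.83 FPKM and then at 2.26, 1.38 and 2.16 FPKM (log2 difference -1.6, adjusted p = 0.433). CXCL2 and CXCL8, chemokines for neutrophils, had log2 differences of -1.22 and -1.42. PTGS2, the inducible cyclooxygenase, was at 4.72, 12 and 3.05 FPKM and then at 3.17, 2.46 and 3.16 FPKM, which overlapped. Without IMF-2d replicate 2 the list median was -0.12, and without IMF-2d replicate 3 it was -0.46. Day 8 levels were of another order, with 101 FPKM of LIF and 420 FPKM of PTGS2 on average, and 13 of the 23 genes were called as higher from day 4 to day 8, against 4.16% of all genes.

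The interferon-stimulated genes gave little information. Their list median was -0.21, and only 2 of 31 tested members had a 95% interval within -1 and 1, so that neither a change nor its absence could be read at this spread. ISG15, a ubiquitin-like protein, stood at 202, 242 and 299 FPKM and then at 147, 160 and 184 FPKM (log2 difference -0.58, 95% interval -2.59 to 1.42). IMF-2d replicate 3 was the highest day 2 library for 26 of the 31 genes (83.9%), against 35.0% of all genes tested. Every day 4 library lay below every day 2 library for 4 of the genes (12.9%) and above for 1 (3.23%), against 9.64% and 14.5% of all genes. Without IMF-2d replicate 3 the list median was -0.08. Without IMF-2d replicate 2 it was -0.27 with 12 genes below (38.7%, against 15.4% of all genes at that setting). Without IMF-4d replicate 3 it was -0.31 with 17 below (54.8%, against 14.6%). IFI6 went the other way, at 233, 203 and 226 FPKM and then at 429, 446 and 431 FPKM (log2 difference 0.98, adjusted p = 0.818).

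Genes of cholesterol synthesis and uptake lay higher as a list without a single call. Of 26 tested members, 17 (65.4%) had every day 4 library above every day 2 library and 1 had every one below, against 14.5% and 9.64% of all genes, and the list median was 0.24, the highest of the 24 lists. MVD, which decarboxylates mevalonate diphosphate, stood at 15.5, 14.2 and 15.5 FPKM and then at 27.7, 29.5 and 22.0 FPKM (log2 difference 0.76, adjusted p = 0.135 in limma). LSS, the lanosterol synthase, was at 23.5, 22.6 and 23.5 FPKM and then at 33.7, 36.8 and 32.7 FPKM (log2 difference 0.55, adjusted p = 0.118). The list median stayed between 0.20 and 0.27 under both other scalings and without any 1 of the 6 libraries, with 15 members above under either scaling. From day 4 to day 8, 16 of the 26 genes were called as lower, against 3.08% of all genes.

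Among 22 tested adipogenic transcription factors none was called, 10 (45.5%) had every day 4 library above every day 2 library and 3 (13.6%) below, against 14.5% and 9.64% of all genes, and the median was 0.18. CEBPA stood at 2.85, 3.30 and 2.52 FPKM and then at 6.36, 5.74 and 5.57 FPKM (log2 difference 0.83, adjusted p = 0.170 in limma). KLF15, a glucocorticoid- and fasting-responsive factor that promotes PPARG expression, was at 1.26, 1.97 and 1.41 FPKM and then at 4.46, 3.10 and 2.91 FPKM (log2 difference 0.81, adjusted p = 0.0636). NR1H3, the liver X receptor alpha, had 19.6, 7.68 and 8.22 FPKM and then 19.4, 25.9 and 22.8 FPKM, so that IMF-2d replicate 1 stood with the day 4 libraries (log2 difference 1, adjusted p = 0.0917). PPARG, the master factor, remained at 0.400 to 0.591 FPKM on day 2 and 0.517 to 1.31 FPKM on day 4, which overlapped.

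Several genes that define the mature fat cell were at or near 0 on both days, while other lipid genes were expressed. ADIPOQ and LEP were listed at 0 in the 6 libraries, PLIN1 reached 0.0376 FPKM in a single day 2 library, and FABP4 was at 0.164 FPKM or less. Of the 27 genes of this list that passed the filter none was called, and the median was 0.07, with 0.04 without IMF-2d replicate 3, 0.11 without IMF-4d replicate 2 and 0.03 after median ratio scaling. FASN, the fatty acid synthase, stood at 49.0, 44.1 and 48.4 FPKM and then at 64.3, 71.0 and 59.1 FPKM (log2 difference 0.45, adjusted p = 0.145 in limma). APOE, which carries cholesterol out of cells, had 3.75, 3.38 and 3.11 FPKM and then 10.5, 8.64 and 8.40 FPKM (log2 difference 1.20, adjusted p = 0.0178). The lipase LPL was at 1.86 to 3.62 and then at 4.69 to 6.44 FPKM.

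The 47 fibrillar matrix and crosslinking genes, all tested, lay on both sides of 0. In 18 of them (38.3%) every day 4 library lay above every day 2 library and in 15 (31.9%) below, against 14.5% and 9.64% of all genes, none was called, and the median was 0.10. After quantile normalization 19 were above and 12 below, with a median of 0.05. COL18A1, the source of endostatin, stood at 12.2, 9.07 and 10.1 FPKM and then at 29.4, 31.2 and 24.9 FPKM (log2 difference 1.37, adjusted p = 0.0266 in limma). TNXB, a tenascin, was at 17.0, 15.5 and 18.7 FPKM and then at 9.20, 12.8 and 9.97 FPKM (log2 difference -0.64, adjusted p = 0.104). COL1A1, the main fibrillar collagen, had a log2 difference of -0.15 (95% interval -0.70 to 0.41), and FN1, fibronectin, one of 0.06 (-0.47 to 0.59).

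Contractile genes had a median of 0.18, with 7 of 20 tested members (35%) above in every day 4 library and 2 (10%) below, against 14.5% and 9.64% of all genes, and none called. The median was 0.10 without IMF-2d replicate 2, the number above was 12 without IMF-2d replicate 3, and it was 4 after quantile normalization. DES, desmin, was at 3.96, 3.03 and 4.56 FPKM and then at 11.8, 10 and 13.2 FPKM (log2 difference 1.39, adjusted p = 0.0426 in limma). ACTA2, the smooth muscle actin of myofibroblasts, was at 848, 786 and 1086 FPKM and then at 1104, 1129 and 1143 FPKM (log2 difference 0.33, 95% interval -0.81 to 1.47). IMF-2d replicate 3 was the highest day 2 library for 17 of these 20 genes (85.0%), against 35.0% of all genes tested. It was also highest for 56.5% of the insulin, 51.9% of the adipocyte lipid and 51.1% of the fibrillar matrix genes.

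Stress, growth and energy genes were described in the same way. The 23 tested genes of the amino acid and endoplasmic reticulum stress response had 11 members (47.8%) above and 4 (17.4%) below, against 14.5% and 9.64% of all genes, a median of 0.12 and no call. The number below was 7 (30.4%) without IMF-4d replicate 3, against 14.6% of all genes. Median ratio scaling gave 8 above (34.8%), against 11.6% of all genes, with a median of 0.08. Of 36 tested cell cycle genes 4 were above and 3 (8.33%) below, against 14.5% and 9.64% of all genes, with a median of 0.04. The number above was 10 (27.8%) without IMF-2d replicate 3, against 19.8% of all genes. It was 8 (22.2%) without IMF-2d replicate 1 or IMF-4d replicate 3, against 20% and 23.7% of all genes. The number below was 7 (19.4%) without IMF-2d replicate 2, against 15.4% of all genes. The median ranged from 0.02 to 0.07 without single libraries and was just below 0 under both other scalings. CDKN1C, an inhibitor of cyclin-dependent kinases, stood at 3.11, 2.96 and 2.02 FPKM and then at 5.48, 6.54 and 6.56 FPKM (log2 difference 0.97, adjusted p = 0.124), and CCND1, cyclin D1, at 38.8, 32.2 and 48.0 FPKM and then at 23.8, 28.1 and 26.5 FPKM (log2 difference -0.57, adjusted p = 0.596). In 26 tested glycolysis and hypoxia genes 3 (11.5%) were above and 8 (30.8%) below, against 14.5% and 9.64% of all genes, with a median of -0.08. Without IMF-2d replicate 2 the numbers were 8 (30.8%) and 9 (34.6%), against 19.3% and 15.4% of all genes. The median was -0.05 without IMF-4d replicate 3, and -0.13 after median ratio scaling, where 11 (42.3%) were below, against 12.8% of all genes. LDHA, lactate dehydrogenase, was at 367, 403 and 349 FPKM and then at 274, 243 and 262 FPKM (log2 difference -0.52, adjusted p = 0.409), and from day 4 to day 8, 19 genes of this list were called as higher, against 4.16% of all genes.

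In the retinoid list CRABP1 alone of 19 tested genes was called. Every day 4 library lay above every day 2 library for 7 of the 19 (36.8%) and below for 5 (26.3%), against 14.5% and 9.64% of all genes. DHRS3, which returns retinal to retinol, stood at 80.1, 91.6 and 80.2 FPKM and then at 136, 128 and 125 FPKM (log2 difference 0.62, adjusted p = 0.611), and CYP26B1, which degrades retinoic acid, at 2.35, 2.02 and 3.13 FPKM and then at 1.11, 1.59 and 1.44 FPKM (log2 difference -0.55, adjusted p = 0.494). The IGF system (11 tested genes, median -0.05), insulin signalling (23, 0.07), TGF-beta, activin and BMP (30, -0.01), CCN and YAP targets (17, -0.02), matrix proteases and inhibitors (21, 0.06), preadipocyte and anti-adipogenic genes (20, -0.07), citrate cycle and respiratory chain (32, -0.04) and antioxidant genes (18, -0.08) held no call. Shares above and below, against 14.5% and 9.64% of all genes, were 34.8% and 21.7% for insulin, 33.3% and 28.6% for proteases and 27.3% and 18.2% for IGF. They were 13.3% and 20% for TGF-beta, 11.8% and 17.6% for CCN and 15% and 25% for preadipocyte genes. The citrate cycle list had 6.25% and 21.9%, and the antioxidant list 16.7% and 27.8%. The sign of the median changed when single libraries were left out for the IGF, insulin, TGF-beta and CCN lists. The median of the proteases ranged from 0.01 without IMF-2d replicate 3 to 0.12 without IMF-2d replicate 2, and that of the citrate cycle list was -0.01 without IMF-4d replicate 3 and -0.09 after median ratio scaling. Of 16 genes that the study discussed as candidates, chosen there on these samples, 3 (18.8%) were above and 3 (18.8%) below in every library, against 14.5% and 9.64% of all genes, with a median of 0.06 and no call. Without IMF-2d replicate 2 the number above was 7 (43.8%, against 19.3% of all genes), with a median of 0.13. Without IMF-4d replicate 2 it was 5 (31.2%, against 18.7%), with a median of 0.12. The median was 0.01 without IMF-2d replicate 3 and 0.02 without IMF-4d replicate 3. From day 4 to day 8, where 4.16% of all genes were called as higher, 8 of the 16 were.

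**Figure D4:**
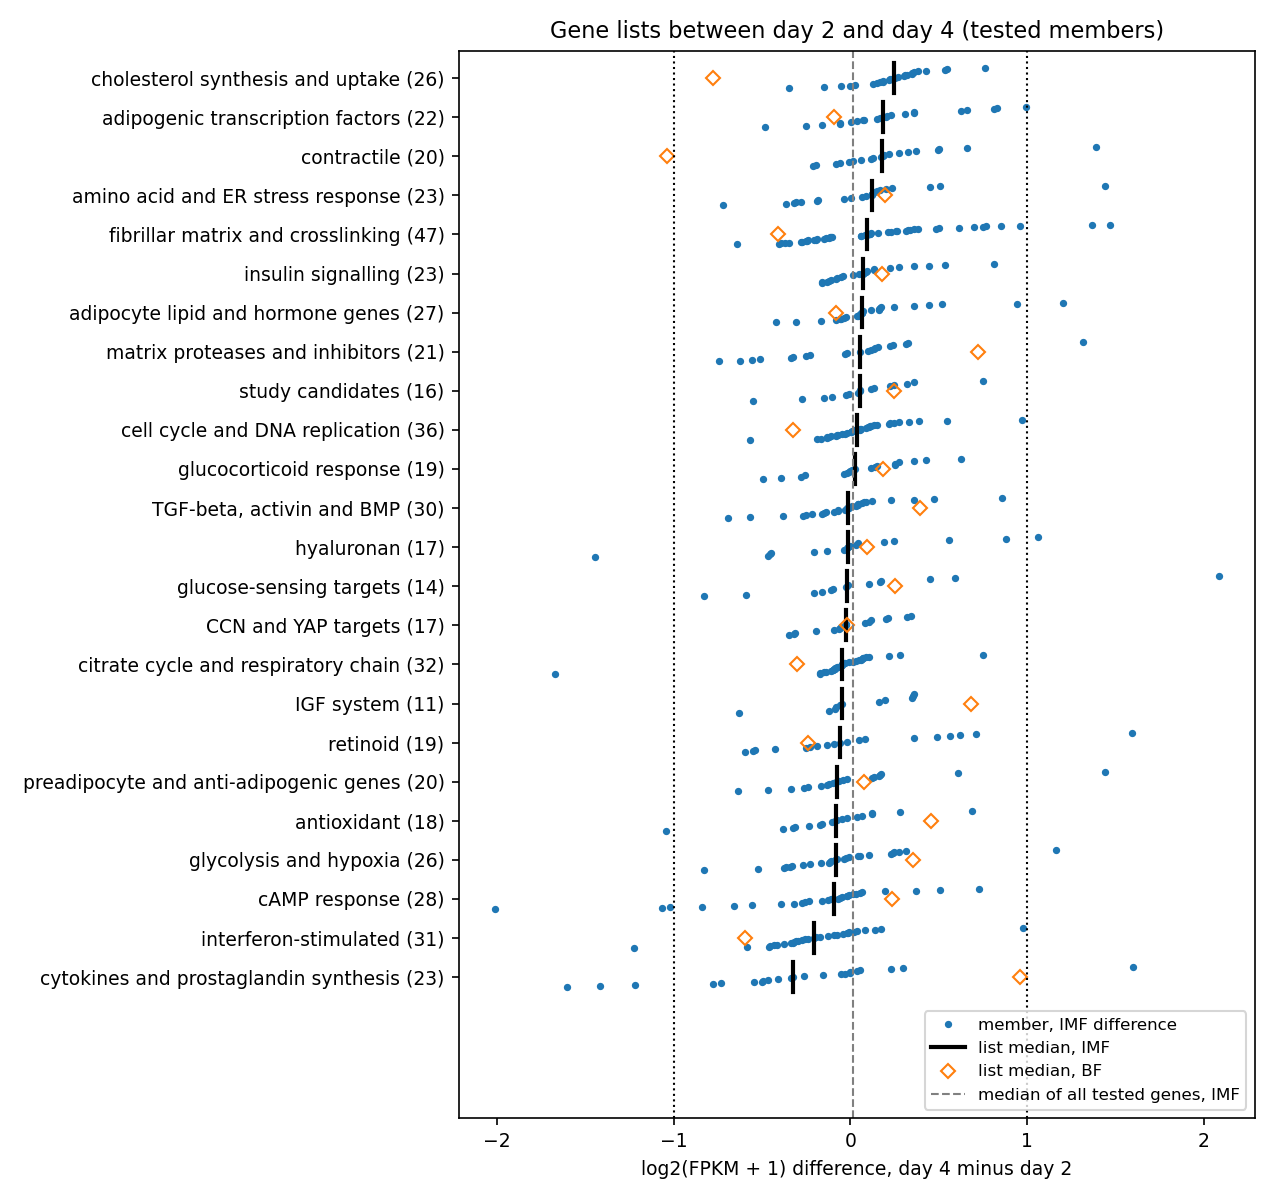
Differences in log2(FPKM + 1), day 4 minus day 2, of the tested members of 24 gene lists (numbers in brackets) in IMF cells, with black bars at the list medians in IMF cells, open diamonds at those in BF cells, a dashed line at the median of all tested genes in IMF cells and dotted lines at -1 and 1. The IMF medians lie between -0.32 and 0.24, and TXNIP at 2.08 is the rightmost point.

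The label of the cells was checked against marker genes. The 14 stromal markers in the table were each at 1 FPKM or more in the 6 libraries and summed to 16999 to 19310 FPKM on day 2 and 17050 to 17291 FPKM on day 4. The 10 adipocyte markers summed to 6.23 to 8.26 FPKM on day 2 and to 12.6 to 15.3 FPKM on day 4. Most of it was CEBPA and LPL, and ADIPOQ and LEP were at 0. Only 6 of the 10 passed the filter on FPKM summed over the 24 libraries, so the others were near 0 throughout the series. The study described many lipid droplets in BF cells late in differentiation and a small amount in IMF cells earlier. Low values of these markers therefore could not separate precursors from lipid-filled fat cells, and only the stromal profile is described. The myogenic factors PAX7, MYF5, MYOD1 and MYOG were listed at 0, and the list of 15 summed to 3.35 to 5.35 and then 10.4 to 13.5 FPKM, most of it DES. The 8 endothelial markers in the table summed to 6.30 to 9.46 FPKM and the 5 Schwann cell markers to 0.305 to 0.641 FPKM. The 10 immune markers summed to 55.1 to 78.0 FPKM, most of it CD79A at 50.4 to 71.8 FPKM, a gene named after its values were seen. CD3E, CD163 and LYZ were at 0, and PTPRC and CSF1R at 0.0581 FPKM or less. CD14 was at 2.60 to 3.72 FPKM, TYROBP at 0.342 to 2.06, CD68 at 0.806 to 1.21 and AIF1 at 0.135 to 1.27 FPKM. The 9 mural markers, led by ACTA2, summed to 826 to 1141 FPKM on day 2 and 1156 to 1197 FPKM on day 4, and 6 of them had every day 4 library above every day 2 library (14.5% of all genes), or 4 under either other scaling (11.6% of all genes after median ratio scaling). The part of mural or other cells in the differences above was not tested.

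Whether the change over the interval differed between the depots was tested as the IMF change minus the BF change. This contrast was called for 493 of 16135 genes (3.06%), 284 with the IMF change above the BF change and 209 with it below. Among the 493 genes the median absolute change was 0.28 in IMF cells and 1.15 in BF cells, 6 were called in IMF cells and 310 in BF cells, and the IMF change was under 0.5 in 392. All 6 genes called in IMF cells were among them, with differences between depots of 2.11 for TXNIP, 1.83 for CRABP1, 1.78 for LMCD1, 1.62 for FBLN7, 1.25 for TNMD and -2.25 for HAS2. Only 33 genes were called when the fit was restricted to the 12 libraries compared.

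DHCR7, the last enzyme of cholesterol synthesis, had the smallest p among genes with a higher change in IMF cells. It was at 19.5, 22.3 and 19.3 FPKM and then at 27.7, 28.5 and 23.2 FPKM in IMF cells, and at 19.8, 24.3 and 20.7 FPKM and then at 5.22, 6.07 and 5.17 FPKM in BF cells. The day 2 levels overlapped and the day 4 levels were apart, with a difference between the changes of 2.16 (SE 0.19, adjusted p = 3.86e-06 in limma). For TXNRD1, thioredoxin reductase, the IMF libraries stayed at 36.0 to 46.3 FPKM while BF libraries were at 52.6 to 59.0 and then at 136 to 167 FPKM (difference -1.57, SE 0.16, adjusted p = 1.68e-05). PDGFC, a platelet-derived growth factor, was at 22.4, 21.3 and 23.0 FPKM and then at 14.6, 15.5 and 16.6 FPKM in IMF cells and at 8.78 to 11.9 and then 24.1 to 32.8 FPKM in BF cells (difference -1.89, SE 0.19, adjusted p = 1.68e-05).

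By list, 11 of the 26 cholesterol genes were called in this contrast, each with the IMF change above the BF change, against 1.76% of all genes called in that direction. Their list median was 0.24 in IMF cells and -0.77 in BF cells, where 7 members were called as lower, against 1.34% of all genes. In the contractile list 8 of 20 genes were called, again with the IMF change above (1.76% of all genes), and the medians were 0.18 and -1.04. ACTA2 in BF cells was at 61.2, 102 and 588 FPKM on day 2, so that BF-2d replicate 3 stood apart, and at 7.38 to 22.1 FPKM on day 4. In the fibrillar matrix list 8 of 47 were called with the IMF change above (1.76% of all genes). In the cytokine list 3 of 23 were called with the IMF change below, against 1.3% of all genes, among them PTGS2, which was at 60.6 to 417 FPKM and then at 753 to 4825 FPKM in BF cells. Of the adipogenic factors, CEBPA, KLF15 and RXRA, 3 of 22, were called with the IMF change above (1.76% of all genes). CEBPA in BF cells was at 9.71, 8.37 and 10 FPKM on day 2 and at 7.27, 2.86 and 1.92 FPKM on day 4, and the difference between the changes was 2.02 (SE 0.33, adjusted p = 0.000946).

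**Figure D5:**
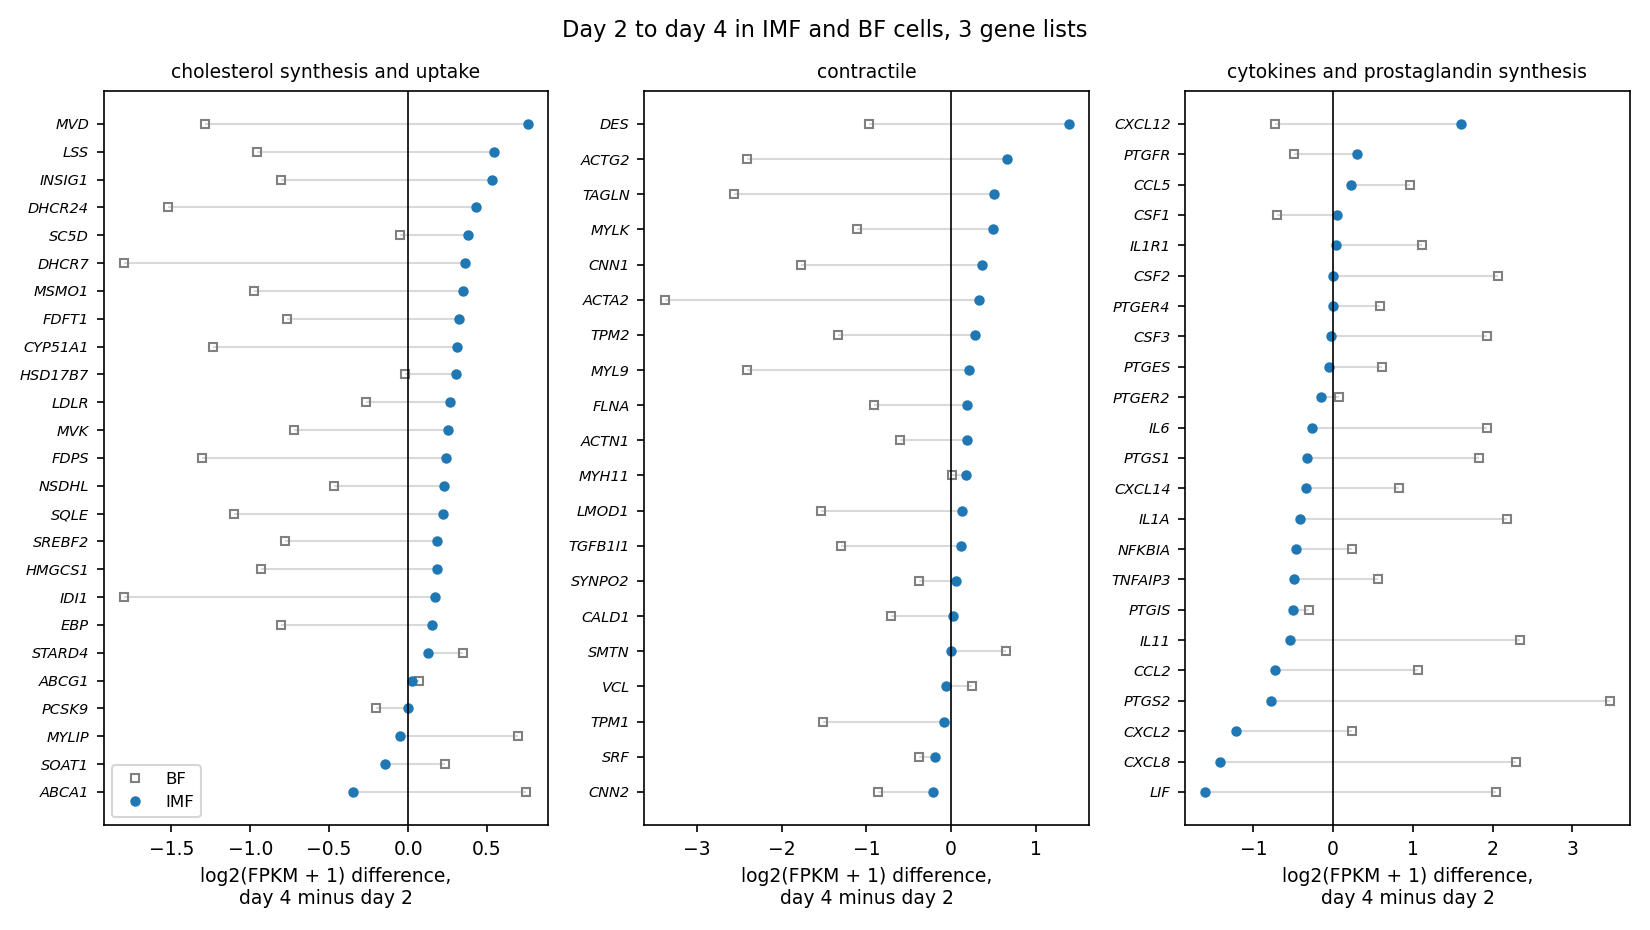
Differences in log2(FPKM + 1), day 4 minus day 2, of tested members of 3 gene lists in IMF cells (filled circles) and BF cells (open squares), joined by a line. In the cholesterol and contractile lists most squares lie left of the circles (medians -0.77 and -1.04 against 0.24 and 0.18), and in the cytokine list most lie to the right (0.96 against -0.32).

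The 6 libraries were alike in the measures that the table allows. Their FPKM summed to 333955 to 350661, and 10613 to 10791 genes reached 1 FPKM. Between 12.37 and 13.08% of the total lay in the top 10 genes. No 2 libraries held identical values, and sequencing depth cannot be recovered from these FPKM.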

How the data were processed

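The series held 24 RNA-seq libraries in 8 groups of 3, grouped by the depot and day in the labels. The authors aligned paired reads with HISAT2 to Sscrofa11.1, assembled and quantified transcripts with StringTie (1.3.4d in the submitters' processing notes) and deposited FPKM values, 1 per gene and library. Length and library size were divided out by the authors, which leaves depth unknown. They called genes with DESeq2 (1.6.3), a count method that FPKM do not allow.

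Genes whose FPKM summed over the 24 libraries exceeded 1 were tested on log2(FPKM + 1), which understates changes of low genes. A group-means model of all libraries was fitted in limma 3.58.1 (R 4.3.3; eBayes with trend and robust, 16 residual degrees of freedom), and the procedure was tested on simulated data. Adjusted p-values are Benjamini-Hochberg over all genes tested. Gene positions and promoter windows were read from RefSeq Sscrofa11.1 by symbol (HAS2 is listed there as SHAS2). The 152 named genes were every called gene, the 10 next genes per direction by p with a difference of at least 0.5 and a mean of at least 1 FPKM, the 4 members of smallest p and preset defining members of each list, and the 2 genes per direction of smallest p between depots. Not all of them are printed above. Among those left out are MMP11, ADAMTS9, CCN1, SMAD3, PDE8A and PRDX1. The interval, lists and rules were chosen with earlier results of these data known. Alternatives were another pseudocount, 2 other filters, 2 scalings, 2 library subsets, a replicate block, another eBayes setting and leaving out each library. One member of the cholesterol list entered its counts but is not reported here.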

Additional observations from a re-analysis of the deposited data

Results flagged for a closer look

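The groups held 3 libraries each, too few for a test of single outlying libraries. What was marked for a closer look was a change from day 2 to day 4 that differed between IMF and BF cells, tested as the IMF change minus the BF change in the limma fit of all libraries. This was called for 493 genes (3.06% of all tested, 1.76% with the IMF change above and 1.3% with it below). Of these, 41 were among the 152 named genes, 29 with the IMF change above the BF change and 12 below. Many named genes were picked by small p in this contrast or in the IMF change that is part of it, so the 41 are raised by that choice. The values below are those differences on the log2(FPKM + 1) scale.

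Of contractile and mural genes, ACTA2 had 3.71, ACTG2 3.07, DES 2.36 and CNN1 2.14. Matrix and stromal genes were MFAP5 with 2.80, COL1A1 with 1.90, FBLN7 with 1.62 and DCN with 1.08. In the retinoid list DHRS3 had 3.49, CRABP1 1.83, RARRES2 1.74 and RXRA 1.03. Cholesterol and lipid genes were DHCR7 with 2.16, MVD with 2.05, APOE with 1.61, LSS with 1.5, FASN with 1.36 and FDFT1 with 1.09. Transcription regulators were CEBPA with 2.02, LMCD1 with 1.78, KLF15 with 1.33 and FOS with 1.27. The remaining genes on this side were CDKN1C with 2.45, TXNIP with 2.11, IGFBP6 with 1.53, FZD8 with 1.3, TNMD with 1.25, UAP1L1 with 1.18 and BMPER with 1.12.

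With the IMF change below the BF change, PTGS2 had -4.24, CYP26B1 -3.08, AGT -2.54 and HAS2 -2.25. The growth factor gene PDGFC had -1.89, TPRG1 -1.77 and TNFSF18 -1.58. The antioxidant genes TXNRD1 and SRXN1 had -1.57 and -1.51. NT5E had -1.40, RHBDL2 -1.37 and KLF10 -1.35.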

How the results depend on the processing

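The count of 6 called genes became 2 with a pseudocount of 0.1 and 19 with only the 12 IMF libraries, and ranged from 2 to 10 when single libraries were left out. Leaving out IMF-2d replicate 2 or IMF-4d replicate 2 gave 2, and leaving out BF-2d replicate 3 gave 10. The 493 genes that differed between depots became 33 with only the compared libraries, and ranged from 270 to 879 when single libraries were left out (879 without BF-2d replicate 1, 317 without IMF-2d replicate 2, 301 without IMF-4d replicate 1 and 270 without IMF-4d replicate 2). The count of intervals within 1 was 15402 of 16135 in the main fit and 11440 of the same genes with a pseudocount of 0.1. It stayed within 1.5 times its value under every alternative, a limit that a count so near the total could not pass upwards. Of the tests of named genes under the alternatives, 4951 kept their side of the limits, 37 lost a call, 19 gained one and 0 reversed. Only the 6 called genes could lose a call, and most of the 4951 were tests of uncalled genes that stayed uncalled. Same-numbered libraries of day 2 and day 4 did not deviate together (correlations across genes of -0.05, -0.07 and -0.02), so the numbers were not taken as pairs, and a fit with the replicate block gave 4 calls, 446 between depots and 15410 intervals within 1. List medians under the 2 scalings and without single libraries were added after seeing the data, and moved beyond the spread between libraries in 49 of the recalculations against 199 that did not. FPKM carry no counts, so counting error could not be given for any gene, least of all for CRABP1, LMCD1 and TNMD at a few FPKM.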
